A study of Mus musculus with 6 samples.

Results

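A set of 8 genes, grouped here as surface markers of naive mouse embryonic stem cells, was followed from 24 h to 48 h of FGF2 treatment: Kit, Pecam1, Icam1, Cd9, Alpl, Cd24a, Bst2 and Fut9. The name is that of the set, and whether each gene marks the naive state was not tested. They were chosen by name, as the rows of the deposited gene table whose Ensembl identifier carries one of these symbols, and all 8 were found among the 51912 gene identifiers of the table. All 8 also passed the filter on low counts that left 14889 genes for testing. The cells were R1 mouse embryonic stem cells, an established line, grown in 2iLIF medium and then moved to serum-free N2B27 that held 100 ng/ml FGF2. Polyadenylated RNA was sequenced after 24 h in 3 libraries and after 48 h in 3 libraries, and both groups carry the same medium change and the same FGF2 dose. Cells kept in the starting medium, or given N2B27 without FGF2, were not analysed here, so the 2 groups differ by their labels in time and no value separates FGF2 from the medium. Nothing in the labels tells whether replicates came from separate cultures, so the p-values measure the spread between these libraries, which may be technical.

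Naive embryonic stem cells resemble the inner cell mass of the blastocyst, and FGF signalling moves them towards the formative and primed states of the later epiblast. Surface molecules are used to recognise and sort such cells because antibodies or enzyme stains can reach them on living colonies. Some of the genes studied here encode the surface protein itself, whereas Fut9 encodes the Golgi enzyme that makes Lewis X, the carbohydrate known as SSEA-1. Messenger RNA was measured here, and protein or carbohydrate on the surface was not.

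The libraries held between about 19575000 and 23133100 estimated counts. Levels are given as CPM, the counts of a gene per 1000000 counts of the library total as scaled by TMM, a method that corrects for differences in RNA composition. Changes are log2 fold changes of 48 h over 24 h from edgeR's quasi-likelihood test, with p-values adjusted by the Benjamini-Hochberg method over all 14889 genes, and a gene with an adjusted p under 0.05 is called changed. Counts of the 8 marker genes were whole numbers throughout, which leaves no sign of reads divided between them and similar genes. Exons of Cd9 and Icam1 share 218 and 511 bases with the non-coding genes Gm26728 and Gm47079 on the opposite strand, which had at most 6 and 8 counts in a library. Whether counting used strand is not given in the sources used here.

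Promoter sequences are shown first for 4 of the genes, of which Kit, Alpl and Icam1 fell and Bst2 rose. Bst2 and Icam1 are known to be controlled by interferon and NF-kappaB signalling, whose genes are described below. RefSeq windows on GRCm38.p6, running from 250 bases before to 50 bases after the start site, matched 5 of the 8 genes: Cd9, Alpl, Bst2, Icam1 and Kit. Of the 2 windows each of Kit and Alpl, the one nearest the annotated gene start was taken. The bases before the start site that lie in no annotated exon are printed 5′ to 3′ on the strand of the gene, which leaves none for Cd9. Capitals mark every match on either strand to GGGCGG (the GC box), TATAAA (the TATA box), TTCNNNGAA (a STAT site) or GAAA, any 2 bases and GAAA again (the core of the interferon response element), where overlapping matches run together.
Kit, chr5:75574737-75574915, plus strand: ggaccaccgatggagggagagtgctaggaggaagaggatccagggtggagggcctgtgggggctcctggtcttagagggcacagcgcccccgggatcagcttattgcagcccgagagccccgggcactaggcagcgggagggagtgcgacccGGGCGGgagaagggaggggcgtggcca
Alpl, chr4:137796385-137796634, minus strand: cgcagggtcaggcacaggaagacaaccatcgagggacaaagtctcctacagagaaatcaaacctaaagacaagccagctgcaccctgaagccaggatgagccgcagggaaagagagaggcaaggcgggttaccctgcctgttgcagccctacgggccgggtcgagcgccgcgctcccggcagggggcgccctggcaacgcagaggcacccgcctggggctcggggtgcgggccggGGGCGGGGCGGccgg
Icam1, chr9:21015690-21015939, plus strand: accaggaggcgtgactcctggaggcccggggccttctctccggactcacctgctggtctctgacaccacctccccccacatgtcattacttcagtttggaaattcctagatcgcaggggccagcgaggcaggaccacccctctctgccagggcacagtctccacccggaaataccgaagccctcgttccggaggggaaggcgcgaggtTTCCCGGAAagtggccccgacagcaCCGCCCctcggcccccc
Bst2, chr8:71537473-71537722, minus strand: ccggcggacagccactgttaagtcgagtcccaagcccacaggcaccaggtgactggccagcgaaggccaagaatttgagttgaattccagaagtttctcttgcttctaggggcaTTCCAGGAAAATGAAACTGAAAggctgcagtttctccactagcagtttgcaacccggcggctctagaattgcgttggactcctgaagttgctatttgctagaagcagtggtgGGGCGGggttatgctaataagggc

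The Bst2 window was the only one of the 5 to hold the interferon response core, with 2 matches that begin 130 and 124 bases before the start site, and its STAT match begins at 136 bases and overlaps the first of them. The core occurs in 3.44% of the 32851 promoter windows of the table and the STAT site in 8.3%. Icam1 held 1 STAT match, which begins 42 bases before its start site. Icam1 also held the only TATA box match of the 5 windows, which lies after the start site, in bases that are not printed. The TATA box occurs in 13.6% of all windows. All 5 windows held the GC box, which occurs in 35.7% of all windows. Their GC content ranged from 53.7% in Bst2 to 70% in Alpl, against a median of 52.7% over all windows. A match is a run of letters and shows no bound factor. No NF-kappaB site was searched for, so the capitals say nothing about whether one is present.

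All 8 surface marker genes changed between 24 h and 48 h, where 62.8% of all tested genes did. Of the 8, 6 fell, namely Kit, Cd9, Pecam1, Icam1, Alpl and Fut9, and 31.9% of all tested genes fell. Cd24a and Bst2 rose, as did 30.9% of all tested genes. The 2 groups were fully separated for each of the 8 genes, as they were for 66.9% of all tested genes. A call or a gap between the groups was therefore common in these libraries, and the sizes carry more of the difference between genes. The median log2 fold change of the 8 genes was -0.49, against -0.01 over all tested genes. Kit, Cd9 and Pecam1 fell at least 2-fold, as did 6.63% of all tested genes. In bulk RNA, fewer cells that carry a transcript and less of it in each cell cannot be told apart.

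**Figure D1:**
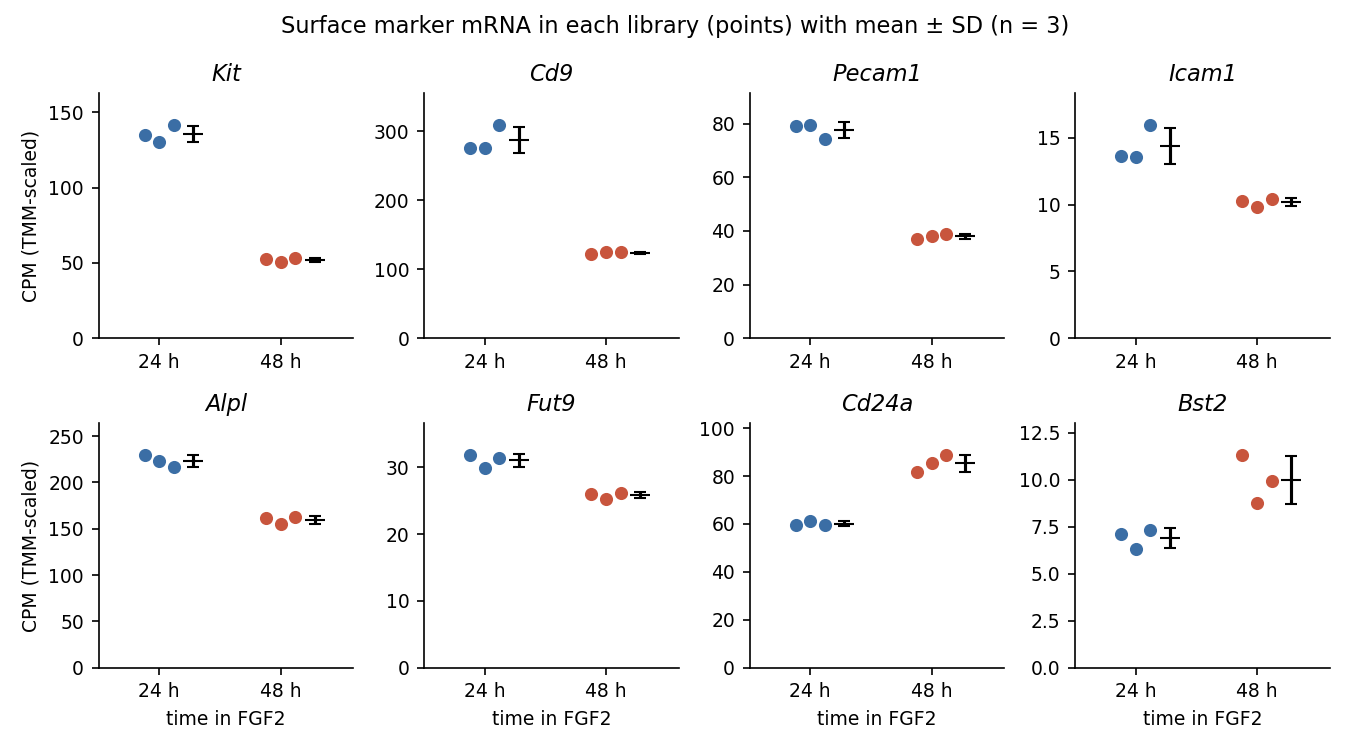
CPM of each surface marker gene in the 3 libraries at 24 h (blue) and the 3 at 48 h (red), with the mean ± SD beside each group and every axis starting at 0. The groups do not overlap in any panel, and Cd24a and Bst2 are the 2 genes that are higher at 48 h.

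Kit (ENSMUSG00000005672, chr5:75574916-75656722, plus strand, GRCm38) encodes the receptor tyrosine kinase for stem cell factor. Kit stood at 135, 130.3 and 141.2 CPM in the 24 h libraries and at 52.6, 50.5 and 53.2 CPM in the 48 h libraries. Each 48 h value was under 54 CPM and each 24 h value was at least 130 CPM, so the gap between the groups was far wider than either group. Kit fell from 135.5 ± 5.46 to 52.1 ± 1.42 CPM (SD over n = 3), and its log2 fold change was -1.38 (standard error 0.04, adjusted p = 5.81e-15). It was the largest fall among the 8 genes, and 3.75% of tested genes had a lower log2 fold change.

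Kitl, the ligand of this receptor, moved the other way and rose from 8.80 ± 0.87 to 15.3 ± 0.63 CPM (SD over n = 3, log2 fold change 0.79 ± 0.09, standard error; adjusted p = 5.81e-07). Of the 18 relatives, ligands and signalling partners of Kit that were listed, 15 were tested, of which 6 rose, 5 fell and 4 were not called, with a median log2 fold change of -0.12. Among those that rose were Cbl, a ubiquitin ligase that removes activated receptors, by 0.50, and the adaptor Grb10 by 0.37. The adaptor Gab1, the listed gene with the highest CPM, rose by 0.32. The Src-family kinase Lyn fell from 8.39 ± 0.62 to 3.34 ± 0.74 CPM, a log2 change of -1.32 (adjusted p = 2.96e-07). Ptpn6, the phosphatase SHP-1 that restrains Kit signalling, had a log2 fold change of -0.59, and the adaptor Grb7 one of -0.35. The other 2 that fell were Grb2 and Pdgfrb. The related receptor genes Csf1r and Flt3 had at most 1 and 2 counts in a library and were too low to test at this depth.

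Pecam1 (ENSMUSG00000020717, chr11:106654217-106750628, minus strand), also called CD31, is an adhesion molecule of the immunoglobulin superfamily that is best known from endothelium and is used to mark undifferentiated stem cell colonies. Pecam1 stood at 79.2, 79.3 and 74.3 CPM at 24 h and at 36.9, 38.2 and 38.9 CPM at 48 h. The lowest 24 h library was thus well above the highest 48 h library. The mean fell from 77.6 ± 2.86 to 37.97 ± 1.02 CPM (SD over n = 3), and its log2 fold change was -1.03 (standard error 0.04, adjusted p = 9.05e-13). Of the 8 tested endothelial markers, 3 fell (Vwf, Kdr and Eng), 1 rose (Cldn5) and 4 were not called, as given with the marker lists. Their part in the level of Pecam1 was not tested.

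Icam1 (ENSMUSG00000037405, chr9:21015985-21028817, plus strand) encodes the adhesion molecule CD54, a ligand of the leukocyte integrins. Icam1 was measured at 13.7, 13.6 and 15.9 CPM at 24 h and at 10.3, 9.83 and 10.4 CPM at 48 h. Replicate 3 of 24 h was the highest library, and the other 24 h libraries also lay above all of the 48 h ones. Icam1 fell from 14.4 ± 1.34 to 10.2 ± 0.32 CPM (SD over n = 3), and its log2 fold change was -0.50 (standard error 0.09, adjusted p = 7.9e-05). Without that replicate the Icam1 log2 fold change was -0.42 (adjusted p = 0.000729).

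Of the 19 listed relatives and ligands of Icam1 and Pecam1, 16 were tested, of which 4 rose, 7 fell and 5 were not called, with a median log2 fold change of -0.14. The changes in this list were wide. Jam2, a junctional adhesion molecule, fell from 196.2 ± 13.8 to 30.02 ± 1.58 CPM (SD over n = 3, log2 fold change -2.71 ± 0.05, standard error; adjusted p = 1.09e-16). Ceacam1, with fractional counts, had a log2 fold change of -2.24. Emb (embigin), a chaperone of monocarboxylate transporters, rose from 68.2 ± 2.90 to 216.5 ± 1.47 CPM (log2 fold change 1.67, standard error 0.03, adjusted p = 5.29e-17). The nectin gene Nectin3 rose by 0.64, Vcam1 also rose at 4 to 19 counts in a library, and Bsg (basigin), the listed gene with the highest CPM, had a log2 fold change of -0.18. The integrin subunits that bind Icam1 split, with Itgal at -0.86 and Itgam at 1.18, while their shared partner Itgb2 had between 2 and 11 counts in a library.

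Cd9 (ENSMUSG00000030342, chr6:125460266-125494791, minus strand) encodes a tetraspanin, a membrane protein that spans the membrane several times and gathers integrins and immunoglobulin-family proteins into patches. Cd9 stood at 275.3, 276.2 and 308.4 CPM at 24 h and at 122.5, 124.3 and 124.9 CPM at 48 h. Replicate 3 of 24 h was above the other 24 h libraries, which lay close together, and the 48 h libraries were nearly equal. Cd9 fell from 286.6 ± 18.8 to 123.9 ± 1.22 CPM (SD over n = 3), and its log2 fold change was -1.21 (standard error 0.04, adjusted p = 4.04e-14). Without replicate 3 of 24 h the log2 fold change was -1.16.

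Of the 23 other tetraspanin and partner genes listed, 21 were tested, of which 10 fell, 5 rose and 6 were not called, with a median log2 fold change of -0.22. Ptgfrn, an immunoglobulin-family protein that binds Cd9 directly, fell from 148.5 ± 2.57 to 78.6 ± 1.01 CPM (SD over n = 3, log2 fold change -0.92 ± 0.03, standard error; adjusted p = 3.76e-14). Igsf8, the related Cd9 partner, was at 15.7 ± 0.69 and 16.8 ± 0.91 CPM and was not called (log2 fold change 0.11, adjusted p = 0.211). Cd81, the tetraspanin closest to Cd9 in its known partners, fell from 141 ± 3.30 to 99.7 ± 3.46 CPM (log2 fold change -0.50). Cd63, with fractional counts, and Tspan15 had log2 fold changes of -0.75 and -0.72. Tspan5 rose by 0.53, and Cd151 and Tspan7 also rose. Tspan2 and Tspan4 rose by 0.34 and 0.23 (adjusted p = 0.0342 and 0.0303), and both calls depended on single libraries. Tspan2 lost its call without any 1 of the 3 libraries of 24 h, or without replicate 2 of 48 h (0.18, adjusted p = 0.228), and also with DESeq2, limma voom or library size as the only scaling. The call of the Tspan4 log2 fold change was lost when replicate 1 (adjusted p = 0.0554) or replicate 3 (0.128) of 24 h was left out, and likewise for replicate 1 (0.0659) or replicate 2 (0.133) of 48 h, and with library size as the only scaling.

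Alpl (ENSMUSG00000028766, chr4:137741733-137796384, minus strand) encodes tissue-nonspecific alkaline phosphatase, a glycosylphosphatidylinositol (GPI) anchored enzyme that underlies the classical stain for undifferentiated colonies. Alpl stood at 229.5, 223.2 and 216.1 CPM at 24 h and at 162, 154.8 and 162.4 CPM at 48 h. The groups were separated by over 50 CPM, and the 48 h values remained high. Alpl fell from 223 ± 6.70 to 159.7 ± 4.30 CPM (SD over n = 3), and its log2 fold change was -0.48 (standard error 0.03, adjusted p = 1.35e-10). The other alkaline phosphatase genes contributed next to nothing, since Akp3 and Alpi had 0 counts in every library and Alppl2 had 3 to 8 at 24 h and 0 to 2 at 48 h.

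Cd24a (ENSMUSG00000047139, chr10:43578284-43584265, plus strand) encodes a small, heavily glycosylated GPI-anchored protein. Cd24a stood at 59.4, 61.3 and 59.6 CPM at 24 h and at 81.7, 85.6 and 88.8 CPM at 48 h. The 24 h libraries were close together and all 48 h libraries were at least 20 CPM higher. Cd24a rose from 60.1 ± 1.07 to 85.3 ± 3.57 CPM (SD over n = 3), and its log2 fold change was 0.51 (standard error 0.04, adjusted p = 3.06e-09).

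Bst2 (ENSMUSG00000046718, chr8:71534255-71537456, minus strand) encodes tetherin, a GPI-anchored membrane protein that holds budding virus particles at the cell and is known as an interferon-induced gene. It had the lowest counts of the 8 genes, between 129 and 246 in a library. Bst2 stood at 7.11, 6.30 and 7.33 CPM at 24 h and at 11.3, 8.78 and 9.92 CPM at 48 h. Every 48 h library lay above every 24 h library, although relative to their mean the 48 h values were spread more widely than those of any other of the 8 genes, at a coefficient of variation of 12.7%. Bst2 rose from 6.91 ± 0.54 to 10.01 ± 1.28 CPM (SD over n = 3), and its log2 fold change was 0.53 (standard error 0.11, adjusted p = 0.00041). The rise was 0.44 without replicate 1 and 0.62 without replicate 2 of 48 h.

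Genes of the machinery that makes and attaches GPI anchors, which Alpl, Cd24a and Bst2 all carry, were also read. Of the 28 listed genes 26 were tested, of which 14 fell, 1 rose and 11 were not called, with a median log2 fold change of -0.21. The gene that rose was Pgap1, a deacylase that remodels the anchor after its transfer, from 109.1 ± 2.83 to 149.5 ± 4.04 CPM (SD over n = 3, log2 fold change 0.45 ± 0.03, standard error; adjusted p = 6.88e-10). It was also the listed gene with the highest CPM. Pigh, a subunit of the enzyme that makes the first intermediate, had a log2 fold change of -0.60, with fractional counts. Pgap2 and Pigk, which act in remodelling and in the transfer of the anchor to protein, had log2 fold changes of -0.47 and -0.45.

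Interferon and NF-kappaB signalling are known to control Bst2 and Icam1. Of the 26 other genes listed for these responses, 20 were tested, of which 15 fell, 2 rose and 3 were not called, with a median log2 fold change of -0.56. The transcription factor genes Irf9 and Stat2 had log2 fold changes of -1.19 and -0.81. Nfkbia, the inhibitor and target of NF-kappaB, fell from 21.5 ± 0.68 to 10.4 ± 0.84 CPM (SD over n = 3), a log2 change of -1.05 (adjusted p = 2.97e-09). Ifitm2, the listed gene with the highest CPM, had a log2 fold change of -0.49. The 2 that rose were H2-K1, a class I histocompatibility gene, by 0.34, and Tap1, a transporter of peptides for class I molecules, by 1.004, a gene named after its values were seen. Bst2 rose while 15 of the 20 tested genes fell, where 31.9% of all tested genes fell. The list pools interferon and NF-kappaB genes, and the part of either in the change of Bst2 was not tested. Other interferon-induced genes of the list, named after their values were seen, ranged from near 0 to clearly counted. Isg15, Irf7 and Mx1 had at most 1, 2 and 4 counts in a library, and Ifit2 had 87 to 111 and was not called. Oas1a fell from between 70.7 and 99.9 counts to between 4.5 and 17.7, with fractional counts, and Rsad2 fell from between 21 and 26 counts to between 9 and 13. Of the genes named here, Irf9, Ifitm2, Tap1 and H2-K1 had fractional counts. With only genes of whole-number counts, 10 of 12 tested genes of the list changed.

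Fut9 (ENSMUSG00000055373, chr4:25609332-25800244, minus strand) encodes the fucosyltransferase that makes the SSEA-1 epitope. Fut9 stood at 31.8, 29.9 and 31.4 CPM at 24 h and at 26, 25.3 and 26.1 CPM at 48 h. The groups were apart by over 3 CPM, a small gap but wider than the spread within either of them. Fut9 fell from 31.06 ± 0.9998 to 25.8 ± 0.43 CPM (SD over n = 3), and its log2 fold change was -0.27 (standard error 0.05, adjusted p = 0.000141). It was the smallest change of the 8 genes.

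Of the 17 other listed genes of fucosylation and Lewis X synthesis, 14 were tested, of which 9 fell, 1 rose and 4 were not called, with a median log2 fold change of -0.31. Fuk, the kinase that salvages free fucose, fell from 33.3 ± 0.94 to 19.4 ± 1.74 CPM (SD over n = 3, log2 fold change -0.78 ± 0.06, standard error; adjusted p = 9.58e-09). The gene that rose was Fut1, an enzyme that makes H antigens, with 4 to 21 counts in a library. Fut10 had a log2 fold change of -1.09. B3gnt2, which extends the lactosamine chains that carry Lewis X, had one of -1.30, with fractional counts and a wide spread at 24 h (25.6 ± 6.80 CPM). B3gnt5, the listed gene with the highest CPM, was at 58.1 ± 3.46 and 59.5 ± 1.14 CPM and was not called (log2 fold change 0.04, adjusted p = 0.475). Its sign turned with library size as the only scaling and without replicate 3 of 24 h. Fut4 and Fut7, the other fucosyltransferases known for making Lewis-type epitopes, had at most 4 and 2 counts in a library.

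**Figure D2:**
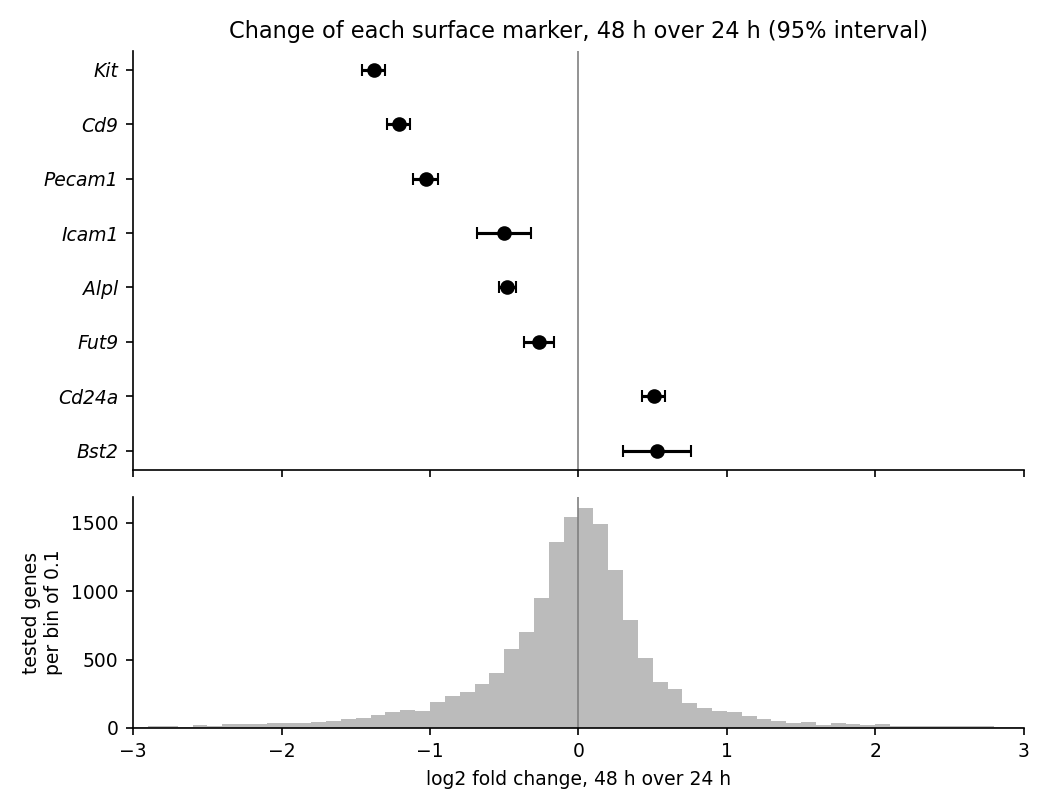
Upper panel, log2 fold change of 48 h over 24 h for each surface marker gene (points) with its 95% interval (bars); lower panel, the number of all 14889 tested genes in bins of the same axis, of which 122 lie beyond its ends. Kit, Cd9 and Pecam1 lie at or below -1, Icam1, Alpl and Fut9 between -0.50 and -0.27, and Cd24a and Bst2 near 0.5.

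Ordered by the size of the change, the genes formed 3 sets whose 95% intervals did not meet. Kit (-1.46 to -1.30), Cd9 (-1.29 to -1.13) and Pecam1 (-1.11 to -0.95) fell most, and their neighbouring intervals were close but separate. The intervals of Icam1 (-0.68 to -0.32), Alpl (-0.54 to -0.42) and Fut9 (-0.37 to -0.16) followed. Icam1 overlapped both Alpl and Fut9, so its place among them was not resolved, while Alpl and Fut9 were apart. Cd24a (0.43 to 0.58) lay inside the interval of Bst2 (0.30 to 0.76). Tested against a change of 1.5-fold in place of no change, Kit, Cd9 and Pecam1 were called and the other 5 were not, where 12.7% of all tested genes were called with 7.75% lower and 4.97% higher. At an adjusted p under 0.01, all 8 were called, as were 52.5% of all tested genes.

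Levels can be compared between genes only per length, so CPM was divided by the length of each gene's joined exons in kb. At 24 h the order was Cd9 at 140.2 ± 9.20 CPM per kb (SD, n = 3), Alpl at 55.3 ± 1.66, Cd24a at 23.3 ± 0.42, Kit at 15.2 ± 0.61, Pecam1 at 12.5 ± 0.46, Bst2 at 7.66 ± 0.60, Icam1 at 3.30 ± 0.31 and Fut9 at 2.25 ± 0.07, and no neighbours overlapped. At 48 h Cd9 was at 60.6 ± 0.60 CPM per kb, Alpl at 39.6 ± 1.07, Cd24a at 33.1 ± 1.38, Bst2 at 11.1 ± 1.41, Pecam1 at 6.10 ± 0.16, Kit at 5.85 ± 0.16, Icam1 at 2.34 ± 0.07 and Fut9 at 1.87 ± 0.03. Bst2 now ranked above both Pecam1 and Kit, and the values of Pecam1 and Kit overlapped. With the length of the principal transcript the order of the means was the same at both times, but at 48 h Bst2 overlapped Pecam1 and Pecam1 no longer overlapped Kit.

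Set against all tested genes on the scale of CPM per kb, Cd9 stayed near the top, above 97.9% of genes at 24 h and 94.5% at 48 h. Kit moved furthest in this ranking, from above 77.1% to above 56.5% of genes. Pecam1 moved from 72.9% to 57.3%, and Cd24a from 84.9% to 89.1%. Fut9 stayed low, at 36.5% and 34.6%.

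**Figure D3:**
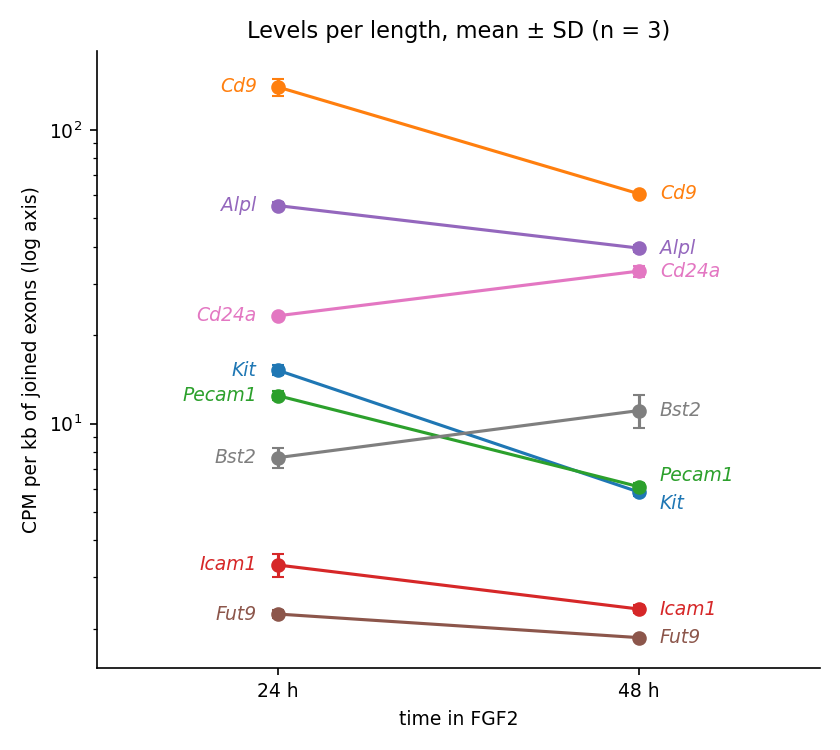
Level per length of each surface marker gene at 24 h and 48 h, as the mean CPM per kb of joined exons ± SD (n = 3) on a log axis. Cd9, Alpl and Cd24a keep the top 3 places, Cd24a draws near Alpl, and the line of Bst2 crosses those of Kit and Pecam1.

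Ratios of 2 genes within a library do not depend on how libraries are scaled to each other. Per length, Cd24a stood at 0.17 ± 0.01 of Cd9 at 24 h and at 0.55 ± 0.02 at 48 h (SD, n = 3), which is 3.27-fold higher. The ratio of Cd24a to Pecam1 was 1.87 ± 0.06 at 24 h and 5.42 ± 0.08 at 48 h. Alpl was 3.64 ± 0.23 times Kit at 24 h and 6.77 ± 0.03 times at 48 h, although both genes fell. Bst2 was 2.32 ± 0.16 times Icam1 at 24 h and 4.74 ± 0.51 times at 48 h. For each of these 4 ratios the groups did not overlap, and the exact permutation p (two-sided) was 0.1 (0.1 after adjustment over the 4), which is as low as 3 libraries against 3 can reach. The 4 pairs followed no stated rule, and each joined genes of unlike change that were already separated between the groups. The separation of the ratios and their p-values therefore add no support to the changes of the single genes. The 8 genes together took 0.0837% to 0.0871% of all counts at 24 h and 0.0487% to 0.0502% at 48 h.

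Other surface proteins of pluripotent cells moved in both directions. Of the 26 listed genes 23 were tested, of which 12 fell, 8 rose and 3 were not called, with a median log2 fold change of -0.15. Epcam, an epithelial adhesion molecule, rose from 71.3 ± 3.76 to 168.7 ± 1.71 CPM (SD over n = 3, log2 fold change 1.24 ± 0.03, standard error; adjusted p = 8.16e-15). Podxl, an anti-adhesive sialomucin, rose from 38.2 ± 1.16 to 93.4 ± 0.97 CPM (log2 fold change 1.29). The heparan sulphate proteoglycan gene Gpc3 rose by 0.80, and the amino acid transporter gene Slc7a3, which had the highest CPM of the list, rose by 0.54. The complement regulator Cd55 fell from 25.1 ± 1.07 to 10.3 ± 0.63 CPM, a log2 change of -1.29 (adjusted p = 1.01e-10), with fractional counts. Sirpa, the receptor for the surface signal Cd47, and the ectoenzyme gene Cd38 had log2 fold changes of -1.16 and -0.83. Cd40 and Cd44, which are used to mark primed or differentiating cells, had at most 13 and 8 counts in a library. Of the 41 genes that the naming rule picked from these lists, 11 overlap an exon of an opposite-strand gene of GENCODE M21: B3gnt2, Cd55, Cd81, Emb, Gab1, Lyn, Pigh, Pigk, Ptpn6, Tspan2 and Tspan4. Some share exon bases with a gene on the same strand, among them Itgam with Gm49368 (3450 bases), B3gnt2 with Gm28048 (2449) and Pgap2 with AC139579.1 (606).

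**Figure D4:**
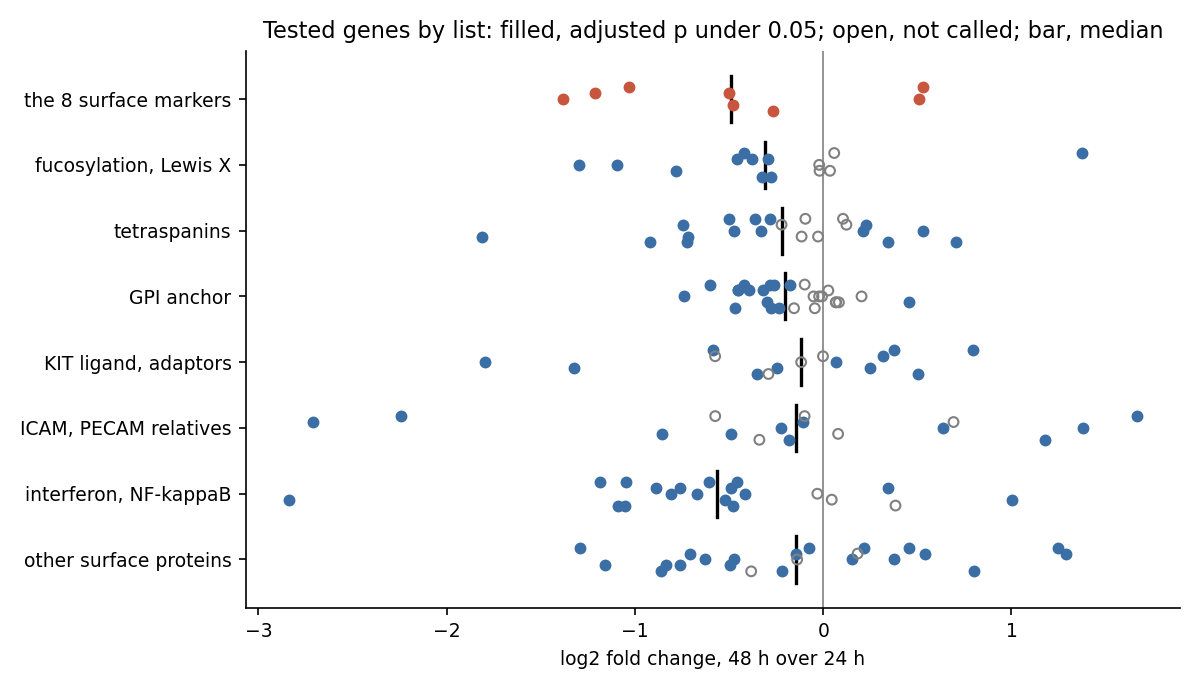
Log2 fold change of 48 h over 24 h for the surface marker genes (red) and for the tested genes of each list (blue), with filled points for an adjusted p under 0.05, open points for genes not called and a bar at each median. The medians of the 7 lists lie between -0.56 (interferon, NF-kappaB) and -0.12 (KIT ligand, adaptors).

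Several of the 8 genes are also known from blood, vessels, germ cells or fibroblasts, so marker lists of these cells were read in the same libraries. The 8 general pluripotency markers were all present and all changed, 4 rising and 4 falling, with a summed level between 3317 and 3379 CPM at 24 h and between 3165 and 3214 CPM at 48 h. Within that sum Nanog fell from 694.7 ± 24.6 to 174.4 ± 6.47 CPM and Lin28a rose from 192 ± 7.83 to 562.8 ± 4.86 CPM. All 8 naive markers fell and all 7 formative or primed markers rose. Of the 8 surface marker genes, Cd24a and Bst2 rose, which was the direction of the formative or primed markers. The other 6 fell, which was the direction of the naive markers. Of all tested genes 30.9% rose and 31.9% fell, and a link of any of the 8 genes to either state was not tested. Of the 11 endothelial markers, 8 were tested, of which 1 rose and 3 fell. Their sum went from between 109.1 and 114.9 CPM to between 91.05 and 95.99 CPM, most of it from Eng at 74.1 CPM at 24 h, with Egfl7 at 323 to 410 counts and Tek at 122 to 175. Vwf fell from between 219 and 278 counts to between 86 and 98, Kdr fell from between 30 and 31 to between 8 and 10, and Cldn5 rose from between 10 and 12 to between 25 and 32. Cdh5, Tie1 and Emcn had at most 1, 3 and 0 counts in a library. The 10 blood markers summed to between 4.28 and 5.81 CPM at 24 h and between 5.62 and 6.35 CPM at 48 h, with 2 of 4 tested genes higher. Ptprc had at most 2 counts, but Cd34 had 46 to 73 at 24 h and 54 to 69 at 48 h. The 8 germ cell markers summed to between 73.4 and 76.6 CPM at 24 h and between 69.7 and 70.05 CPM at 48 h, with 2 of 7 tested genes higher and 4 lower. Ddx4 had 328 to 408 counts at 24 h and 425 to 433 at 48 h, and Dazl had 459 to 531 and 402 to 418. The 9 fibroblast markers summed to between 4.05 and 6.02 CPM at 24 h and between 3.13 and 4.51 CPM at 48 h, with 1 of 4 tested genes higher, 2 lower and Lum and Postn at 0, but Dcn had 0 counts in each 24 h library and 23 to 32 in each 48 h library. The 7 trophoblast markers summed to between 38.5 and 41.3 CPM at 24 h and between 24.6 and 28.9 CPM at 48 h, with 2 of 3 tested genes lower. Cdx2 had at most 1 count, but Eomes had 313 to 361 at 24 h and 273 to 312 at 48 h. Tfap2a had 454 to 572 counts at 24 h and 254 to 320 at 48 h. The 7 primitive endoderm markers summed to between 8.21 and 9.87 CPM at 24 h and between 5.35 and 5.66 CPM at 48 h, with 1 of 2 tested genes lower. Ttr was at 0, but Gata4 had 97 to 148 counts at 24 h and 45 to 54 at 48 h. Dab2 had 51 to 73 counts at 24 h and 49 to 60 at 48 h. Levels of Kit and Pecam1 were above the sums of the blood and fibroblast lists at both times. Pecam1 was below the endothelial sum at both. Kit, at a mean of 135.5 CPM, was above the endothelial and germ cell sums at 24 h. At 48 h Kit, at 52.1 CPM, was below both, and Pecam1, at 37.97 CPM, was also below the germ cell sum. The 24 h values of Pecam1 (74.3 to 79.3 CPM) overlapped the germ cell sums of 24 h. These sums are in CPM and were not divided by length, so standing above or below them does not rank levels. A sum of chosen markers sets no limit on the level of another gene. The part of any of these cell types in the levels of the 8 genes was not tested.

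The tested genes most like each marker gene were those with the smallest root-mean-square distance between centred log2 CPM values over the 6 libraries, among 10427 genes with a symbol and a mean of at least 5 CPM. With 2 groups of 3 libraries this measure mainly reads the size of the change. For Kit these were Spp1 and Abca1, both at a distance of 0.02 on the log2 scale. For Pecam1 they were Cabp1 (0.01) and 1700066M21Rik (0.03), and for Cd9 they were Ror2 (0.02) and Fzd5 (0.04). For Alpl they were Tcea3 and Abr (0.02 each), for Icam1 Wbp1 and Atrnl1 (0.03 each), and for Fut9 Prkar1a (0.01) and Rnf185 (0.02). For Cd24a they were Gcnt1 and Taf1d (0.02 each), and for Bst2 they were Gm18983 (0.03) and Lrp3 (0.06), the least close of these pairs.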

How the data were processed

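The 8 marker genes and the gene lists were chosen with earlier results of these data known. The authors deposited estimated counts per gene (expected counts from RSEM), not scaled for depth or length, with 1 column per library. The submitters' processing notes name STAR 2.5.2, RSEM 1.3.0, cutadapt 1.9.1 and the GRCm38 build, and the annotation and use of strand are not given in the sources used here. Every column matched 1 sample title. Symbols, lengths and exon overlaps came from GENCODE M21 (GRCm38), and 51633 identifiers had a symbol. Promoter windows came from RefSeq on GRCm38.p6, and their exon overlaps were read from GENCODE M21.

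Counts were rounded to whole numbers, filtered with filterByExpr (minimum count 10), scaled by TMM and fitted with group as the only term (edgeR 4.0.16, R 4.3.3; glmQLFit and glmQLFTest). The standard error is the size of the log2 fold change divided by the square root of F. CPM is given as mean ± SD. Lists are described by counts of called genes and medians, with no set test. Their counts stand beside the 31.9% of all tested genes that fell and the 30.9% that rose. From each list the text names the 3 called genes with the largest rise and the 3 with the largest fall at a mean of at least 5 CPM and the gene with the highest CPM, with others as examples chosen after their values were seen; 1 gene that the rule names is not reported here. The test was checked on simulated counts, and the outcome of that check is not given here. Alternatives were RLE, upper quartile or no scaling beyond library size, 2 other filters, DESeq2 1.42.0, limma voom 3.58.1, unrounded counts, a replicate block, a threshold of 0.01, a test against a 1.5-fold change, and leaving out each library. Chosen after seeing the data were a fit restricted to whole-number genes, thinning to the lowest total, and the length of the principal transcript.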

Additional observations from a re-analysis of the deposited data

How the results depend on the processing

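The 8 marker genes kept their direction in all 19 alternatives, and Kit, Cd9 and Pecam1 kept their call in each. Tested against a 1.5-fold change, the count of called marker genes went from 8 to 3, with 3 lower and 0 higher, since Cd24a (0.51), Alpl (-0.48), Fut9 (-0.27), Bst2 (0.53) and Icam1 (-0.50) each had an adjusted p of 1. The same test called 1894 of all genes, 1154 lower and 740 higher. The share over all tested genes was 12.7%. By list, this test called 3 of 14 tested genes for fucosylation, 3 of 21 for tetraspanins and 0 of 26 for the GPI anchor. It called 3 of 15 of the KIT list and 5 of 16 of the ICAM and PECAM list. Of the interferon and NF-kappaB list it called 8 of 20, and of the other surface proteins 8 of 23. With whole-number counts only, 12 genes of the interferon and NF-kappaB list were tested and 10 called, because fewer genes were tested. Leaving out 1 library gave from 8737 to 8904 called genes in all. The replicate block called 9235 genes, all 8 marker genes among them, and changed no marker call. Same-numbered libraries showed no shared deviation from the means of their groups (correlation over genes -0.05, -0.04 and -0.01), and their numbers were not taken as pairs. Among the 41 genes that the naming rule picked from the lists, 736 values kept direction and call, 33 lost the call and 2 reversed. Both reversals were of B3gnt5, at -0.024 with library size as the only scaling and at -0.0093 without replicate 3 of 24 h, and leaving out 1 library gave a B3gnt5 log2 fold change from -0.0093 to 0.0799. Bst2, with 129 to 246 counts in a library, moved most of the 8 between libraries left out, from 0.44 to 0.62.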
